A study of Mus musculus with 15 samples.

Results

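Genes for proteins of the secondary and tertiary granules of neutrophils were examined in bone marrow of mice with acute myeloid leukaemia (AML) and of wild-type mice. The 10 genes, taken by symbol, were Camp, Ltf, Ngp, Lcn2, Mmp8, Mmp9, Olfm4, Chil3, Cd177 and Retnlg, out of 38315 in the table. All 10 passed a filter on low values that kept 18941 genes. RNA was sequenced in bulk from 7 marrows of AML mice with the genotype NUP98-NSD1/FLT3-ITD, 4 whole marrows of wild-type mice and 4 lineage-negative marrows of wild-type mice. In NUP98-NSD1 the start of a nuclear pore protein is fused to a methyltransferase of histone H3. FLT3-ITD is a duplicated stretch within FLT3, a receptor kinase of early blood cells. Lineage-negative marrow has been depleted of cells that carry surface markers of mature blood lineages. The age and sex of the mice, the promoters that drive the alleles, the share of leukaemic cells and the antibodies used for depletion are not given in the sources used here. It is also not stated whether the samples of a group came from separate mice, so p-values measure the spread between these samples, which may be partly technical.

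Neutrophils build their granules in order as they mature. Primary granules, with myeloperoxidase and serine proteases, form in promyelocytes, secondary (specific) granules form in myelocytes and metamyelocytes, and tertiary (gelatinase) granules form in band cells. Because the proteins are packed as they are made, the transcripts of each granule class mark a stage of maturation, and in normal marrow those of the secondary granules are among the most abundant of all. The transcription factor C/EBP epsilon is known to be needed for secondary granule genes.

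Values are normalized counts, which are read counts divided by a size factor for each library, and errors are standard deviations (SD). The estimated depth (in M, mega reads) was 11.4 to 17.2 for whole marrow libraries, 20.3 to 35.1 for those of AML and 20.3 to 28.1 for lineage-negative ones. A floor of 3 reads corresponded to 1.96 to 4.09 normalized counts, and each of the 10 genes lay above the floor of its library in all 15 libraries. Scaling differed between the groups: the typical gene kept had a log2 difference (median) of 0.67 in AML against whole marrow, of 0.59 in lineage-negative against whole marrow, and of 0.02 in AML against lineage-negative marrow. With TMM (trimmed mean of M values) scaling, which sets typical genes level, these medians were 0.01, -0.10 and 0.05. A difference described below as relative to all genes has had this median subtracted. AML replicates 5 and 6 had 29.1% and 23.6% of genes listed at 0, against 38.2% to 41.4% in the other AML libraries and 7.12% to 15.7% in whole marrow, so results were also computed without them. Whole marrow replicate 1 stood apart within its group, with a TMM factor of 0.472 against 0.790 to 0.816 in the other 3, and was the lowest of the 4 for all 10 genes. Counts of AML libraries below the whole marrow range are therefore also given without it. All placements of AML libraries above, within or below the whole marrow range use the deposited scaling. The TMM factors of AML libraries were 1.08 to 1.19, higher than those of all whole marrow libraries. With TMM scaling AML libraries would therefore lie lower against whole marrow than these placements show.

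Camp, Ngp and Ltf lie near each other on chromosome 9. In the coordinates of the table, whose build does not match the annotation used here, Camp (ENSMUSG00000038357) spans 109676447 to 109678685, Ngp (ENSMUSG00000032484) 110248815 to 110252080 and Ltf (ENSMUSG00000032496) 110848339 to 110871835. Camp and Ltf start 1.17 Mb apart. Mmp8 (ENSMUSG00000005800, 7558457 to 7568486) is also on chromosome 9, 102 Mb from Camp. The others are on chromosomes 2 (Lcn2, ENSMUSG00000026822, 32274645 to 32278264, and Mmp9, ENSMUSG00000017737, 164782700 to 164797770), 3 (Chil3, ENSMUSG00000040809, 106054870 to 106074880), 7 (Cd177, ENSMUSG00000052212, 24443408 to 24459736), 14 (Olfm4, ENSMUSG00000022026, 80221521 to 80260579) and 16 (Retnlg, ENSMUSG00000022651, 48692984 to 48694859).

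Promoters were read for the genes found in the RefSeq table of build GRCm38.p6, 9 of the 10, with Mmp9 not among them. A C/EBP-type motif, TTNNGCAA on either strand, occurred in 5 of 9 windows of 300 bases (250 before the start and 50 after), those of Ltf, Ngp, Lcn2, Mmp8 and Retnlg, against 10.8% of all 32851 windows of that length. A PU.1-type motif, GAGGAA on either strand, occurred in 5 of 9, those of Ltf, Lcn2, Mmp8, Olfm4 and Cd177, against 28.3% of all. Both motifs occurred in 3 of 9, those of Ltf, Lcn2 and Mmp8, against 2.92%. The C/EBP-type and PU.1-type matches did not overlap in these 3 windows. A match is a description of the letters, and binding was not measured. The 5 promoters with a C/EBP-type match are shown. Of their genes, Ltf, Ngp and Lcn2 had the same order across the AML libraries. Mmp8 and Retnlg were below every whole marrow library in the same 3 AML libraries, as was Mmp9, whose promoter was not read. A link between the matches and these values was not tested. Each sequence runs 5' to 3' over the 250 bases before the start, in lower case with the matches in capitals.
Ltf (chr9:111019042-111019291, plus strand): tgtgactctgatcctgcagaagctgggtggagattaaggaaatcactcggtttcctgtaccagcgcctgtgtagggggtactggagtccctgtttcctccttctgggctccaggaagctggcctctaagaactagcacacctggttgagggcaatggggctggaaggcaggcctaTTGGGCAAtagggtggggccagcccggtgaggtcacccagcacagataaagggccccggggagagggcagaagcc
Ngp (chr9:110419558-110419807, plus strand): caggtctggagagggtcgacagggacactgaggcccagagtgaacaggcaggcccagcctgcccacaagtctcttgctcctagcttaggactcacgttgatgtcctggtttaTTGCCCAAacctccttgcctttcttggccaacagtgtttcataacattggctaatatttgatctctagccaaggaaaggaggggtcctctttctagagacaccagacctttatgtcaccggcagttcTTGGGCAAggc
Lcn2 (chr2:32387740-32387989, minus strand): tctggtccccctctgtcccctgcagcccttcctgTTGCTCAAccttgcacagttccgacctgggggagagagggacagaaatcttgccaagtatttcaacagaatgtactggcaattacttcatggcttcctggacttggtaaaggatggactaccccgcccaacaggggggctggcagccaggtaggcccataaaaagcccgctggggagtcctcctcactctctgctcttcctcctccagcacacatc
Mmp8 (chr9:7558179-7558428, plus strand): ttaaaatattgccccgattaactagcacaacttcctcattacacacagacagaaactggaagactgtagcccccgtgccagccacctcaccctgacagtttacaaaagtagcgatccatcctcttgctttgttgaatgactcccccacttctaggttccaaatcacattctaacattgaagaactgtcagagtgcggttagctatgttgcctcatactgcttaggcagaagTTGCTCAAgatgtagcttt
Retnlg (chr16:48872358-48872607, plus strand): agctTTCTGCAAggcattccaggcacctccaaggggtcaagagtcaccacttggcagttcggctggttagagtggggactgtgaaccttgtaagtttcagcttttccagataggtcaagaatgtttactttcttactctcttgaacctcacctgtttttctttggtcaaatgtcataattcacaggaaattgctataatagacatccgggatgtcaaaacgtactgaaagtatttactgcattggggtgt
Counted from the start of the gene, the first base of the match was at -75 in Ltf, at -138 and -11 in Ngp, at -216 in Lcn2, at -19 in Mmp8 and at -246 in Retnlg. The matched letters of Ltf, TTGGGCAA, are the same as those of the match nearest the start in Ngp, and the matched letters of Lcn2, TTGCTCAA, are the same as in Mmp8.

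The first comparison asked how AML marrow differed from normal marrow of mixed maturity. Transcripts of the secondary and tertiary granules were abundant in both, and none of the 10 genes passed the test. The p-values from limma had a Benjamini-Hochberg adjustment over all 18941 genes, and a gene was called where that p was under 0.05 and the log2 difference was 1 or more in size. By this rule 0 of 10 were called higher, where 27.3% of all genes were, and 0 of 10 lower, where 11.3% of all genes were. At an unadjusted p under 0.05 the count was also 0. The median log2 difference of the 10 genes was 0.07, against 0.67 for all genes kept, and with TMM scaling it was -0.61. Under TMM scaling 0 of 10 were called in either direction, where 4.92% of all genes were called higher and 15.8% lower. With the deposited scaling the groups overlapped for all 10 genes, while 35.8% of all genes lay wholly higher in AML and 7.88% wholly lower. The fit took the spread of each gene from all 3 groups together. Lineage-negative libraries varied widely, with Ltf for one running from 64.3 to 4885 there. Their spread widens the intervals given for AML against whole marrow. When AML and whole marrow were fitted alone, 1 of the 10, Olfm4, was called higher.

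**Figure D1:**
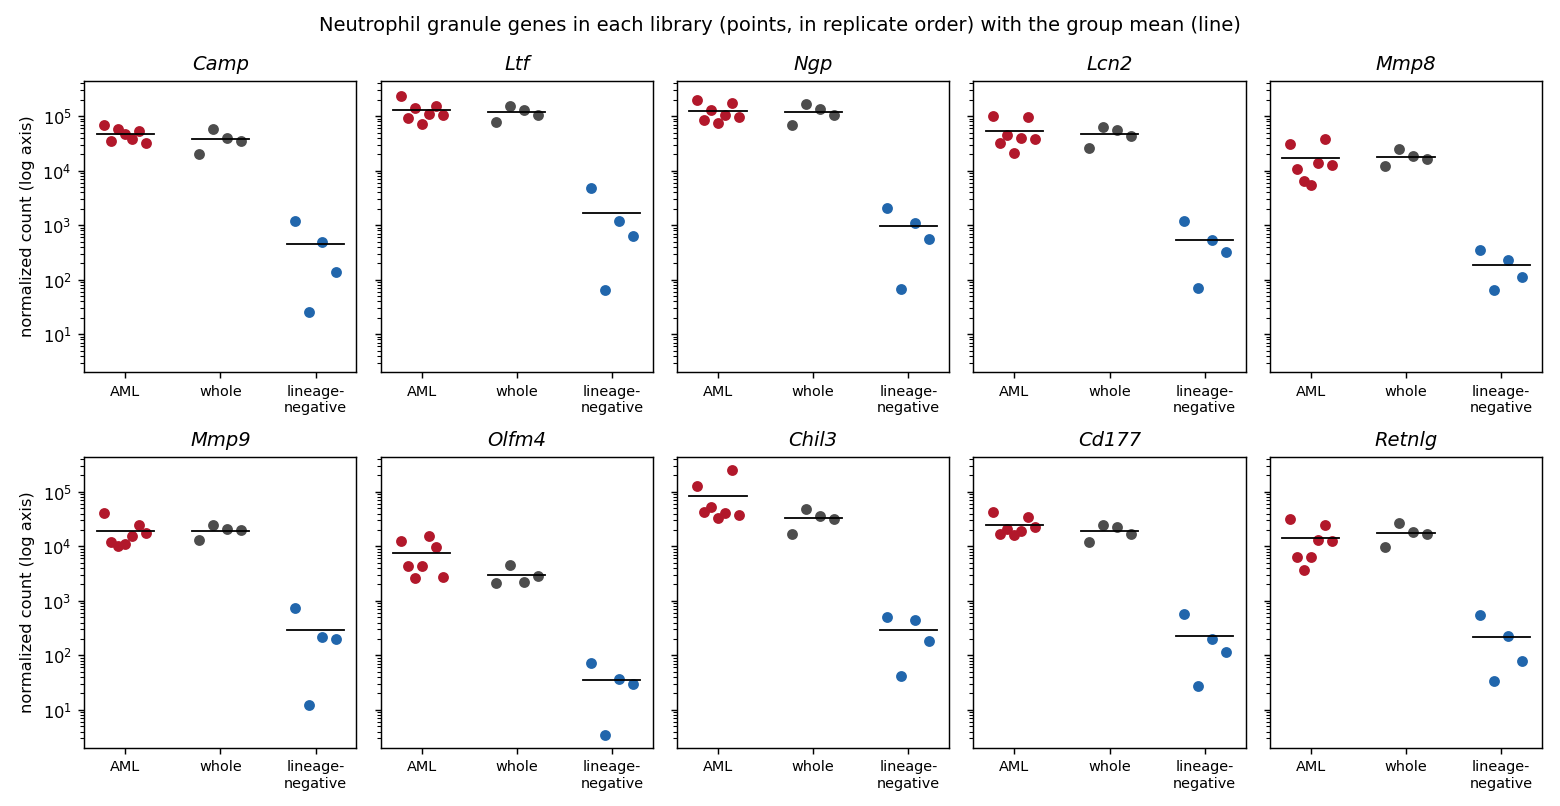
Normalized counts (log axis) of the 10 genes in each library, as points in replicate order within AML (7), whole marrow (4) and lineage-negative marrow (4), with a line at the group mean. AML and whole marrow overlap for every gene, and every lineage-negative point lies below every AML point.

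Among the classical secondary granule proteins, Camp encodes the cathelicidin precursor of an antimicrobial peptide. It ranged from 31635 through a median of 47079 to 69669 normalized counts in the 7 AML libraries, and had 20424, 59165, 39913 and 35327 in whole marrow replicates 1 to 4. AML replicate 1 lay above the whole marrow range and the other 6 within it, while without whole marrow replicate 1 AML replicates 2 and 7 lay below the lowest value, 35327. The mean was 47592 ± 13688 for AML (SD, n = 7) and 38707 ± 15976 for whole marrow (SD, n = 4), a log2 difference of 0.35 (95% interval -0.98 to 1.68, limma adjusted p = 0.647), -0.33 relative to all genes.

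Ltf encodes lactoferrin, which binds iron. It ranged from 70989 through 111185 to 231177 normalized counts in AML and had 79621, 155238, 130081 and 104972 in whole marrow. AML replicates 1 and 6 lay above the whole marrow range, replicate 4 below it and the other 4 within it, while without whole marrow replicate 1 AML replicates 2, 4 and 7 were below. The log2 difference was 0.09 (95% interval -1.37 to 1.55, limma adjusted p = 0.919), -0.58 relative to all genes. Ngp, a cystatin-related granule protein, ranged from 73970 through 106579 to 199106 normalized counts in AML and had 68335, 170480.0, 137943 and 107007 in whole marrow. AML replicates 1 and 6 again lay above the range and the other 5 within it, but without whole marrow replicate 1 AML replicates 2, 4, 5 and 7 were below. Its log2 difference was 0.03 (95% interval -1.22 to 1.28). Lcn2 encodes lipocalin 2, which binds bacterial siderophores. It ranged from 20887 through 39180 to 99200.5 normalized counts in AML and had 26223, 63088, 56598 and 43400.1 in whole marrow. AML replicates 1 and 6 were above the whole marrow range and replicate 4 below it, and without whole marrow replicate 1 AML replicates 2, 4, 5 and 7 were below. The log2 difference of Lcn2 was 0.04 (95% interval -1.10 to 1.19).

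Both proteases of these granules had negative log2 differences that did not pass the test. Mmp8, neutrophil collagenase, ranged from 5485 through 12809 to 38463 normalized counts in AML and had 12320.1, 24753, 18863 and 16185 in whole marrow. AML replicates 2, 3 and 4 lay below every whole marrow library and replicates 1 and 6 above every one. Its log2 difference was -0.38 (95% interval -1.38 to 0.63, limma adjusted p = 0.507), -1.05 relative to all genes, and with TMM scaling the adjusted p was 0.108. Mmp9, gelatinase B of the tertiary granules, ranged from 10227 through 15262 to 40961 normalized counts in AML and had 12909.9, 24243, 21111 and 19724 in whole marrow. The same 3 libraries were below the whole marrow range, and replicates 1 and 6 above it. For Mmp8 and Mmp9 alike, 5 AML libraries, all but replicates 1 and 6, were below without whole marrow replicate 1. Its log2 difference was -0.18 (95% interval -1.58 to 1.22), -0.85 relative to all genes.

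Retnlg encodes resistin-like gamma, whose transcript appears late in neutrophil maturation. It ranged from 3680.2 through 12674 to 31572 normalized counts in AML and had 9646, 26862, 18079 and 16768 in whole marrow. AML replicates 2, 3 and 4 were below every whole marrow library, and replicate 1 was above every one. Without whole marrow replicate 1, AML replicates 5 and 7 were below as well. The log2 difference was -0.61 (95% interval -1.88 to 0.66, limma adjusted p = 0.390), the lowest of the 10, and -1.28 relative to all genes, with an adjusted p of 0.119 under TMM scaling.

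Olfm4 and Chil3 had the highest differences. Olfm4 encodes olfactomedin 4, a granule protein found in a subset of neutrophils. Its normalized counts in AML replicates 1 to 7 were 12658, 4276, 2657, 4337, 15535, 9621 and 2773, and in whole marrow 2157, 4505, 2202 and 2836. AML replicates 1, 5 and 6 lay above the whole marrow range and the other 4 within it. The log2 difference was 1.09 (95% interval -0.13 to 2.30, limma adjusted p = 0.109), 0.41 relative to all genes. It was called, with the same difference, when the AML and whole marrow libraries were fitted alone (adjusted p = 0.0399) and without lineage-negative replicate 2 (adjusted p = 0.0342). Without AML replicates 5 and 6 the log2 difference was 0.67, and the adjusted p ran from 0.0342 to 0.640 over 25 alternatives.

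Chil3 encodes a chitinase-like lectin, Ym1, that monocytes and macrophages can also express. It has a close paralog, Chil4, so the division of reads between them is uncertain. In AML replicates 1 to 7 Chil3 had 125977, 42038, 51845, 32624, 40696, 252255 and 38309 normalized counts, and in whole marrow 16741, 49224, 35987 and 31514. AML replicates 1, 3 and 6 lay above the whole marrow range, and the other 4 within it. The means were 83392 ± 81103 (SD, n = 7) and 33366 ± 13394 (SD, n = 4). The log2 difference was 1.00 (95% interval -0.25 to 2.24, limma adjusted p = 0.152), 0.32 relative to all genes, and 0.66 without AML replicate 6. Markers of monocytes and macrophages moved in the same comparison: 8 of 10 were called higher in AML, where 27.3% of all genes were. Their summed normalized counts were 92673 to 219119 in AML and 22883 to 46334 in whole marrow. None of these markers was at 0 in all libraries of a group. Their part in the values of Chil3 was not tested. In these bulk samples fewer cells of a type and less RNA per cell cannot be told apart.

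Cd177, a surface glycoprotein that is stored in secondary granules, ranged from 16332 through 20515 to 43150 normalized counts in AML and had 12112, 24626, 22550.0 and 17061 in whole marrow. AML replicates 1 and 6 were above the whole marrow range and the rest within it, while without whole marrow replicate 1 AML replicates 2 and 4 were below. Its log2 difference was 0.33 (95% interval -0.74 to 1.39), -0.35 relative to all genes. For Camp, Ltf, Ngp, Lcn2 and Cd177 the small positive log2 differences turned negative with TMM scaling, between -0.65 and -0.33, still without a call.

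**Figure D2:**
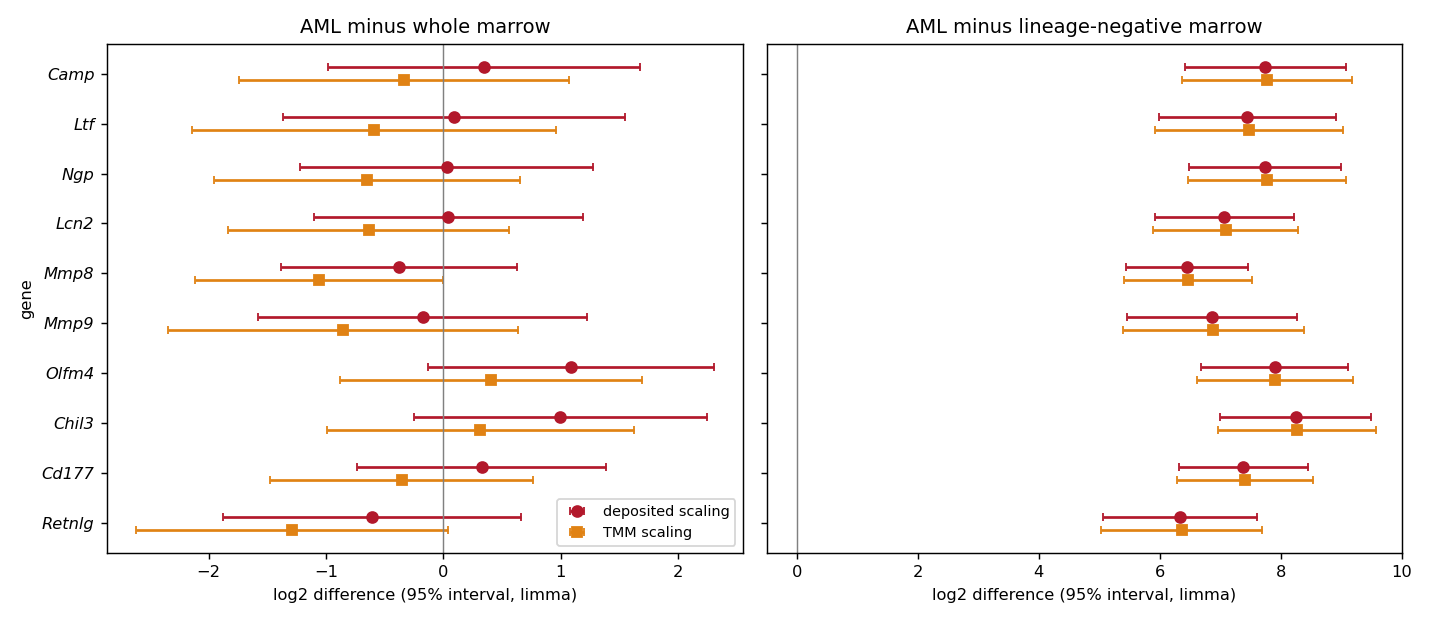
Log2 differences with 95% intervals from limma for the 10 genes (vertical axis), AML against whole marrow on one panel, with deposited and TMM scaling, and AML against lineage-negative marrow on the other. Every interval against whole marrow with the deposited scaling includes 0, and every one against lineage-negative marrow lies above 5.

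Compared per kilobase of exon, the order of the genes was similar at the top and bottom in both groups. In AML the mean normalized count per kilobase was 101434 for Ngp, 62786 for Camp, 51098 for Chil3, 37506 for Ltf, 23741 for Retnlg, 20374 for Lcn2, 8653 for Cd177, 7003 for Mmp8, 5342 for Mmp9 and 2501 for Olfm4. In whole marrow Ngp (98970.0 per kilobase) and Camp (51065) also led, and Olfm4 (988) was also last. By these means Chil3 followed Ngp and Camp in AML, while in whole marrow, at 20445 per kilobase, it also came after Ltf (34052) and Retnlg (30082). The AML mean of Chil3 was raised by replicates 1 and 6. They had 125977 and 252255 normalized counts, against 32624 to 51845 in the other AML libraries. The order within a single AML library can therefore differ from that of the means. Neighbours in the order, such as Retnlg and Lcn2 or Mmp8 and Mmp9 in AML, overlapped within their spread over libraries. Lengths were those of all annotated exons of a gene merged, whichever transcripts were expressed. For Lcn2 this was 2623 bases of a span of 3620, so its place in the order depends on the annotation.

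The second comparison set AML against immature normal marrow. All 10 genes were higher in AML, with log2 differences from 6.33 for Retnlg to 8.24 for Chil3 and limma adjusted p-values from 8.90e-10 (Cd177) to 8.13e-08 (Mmp9). Of all genes, 17.7% were called higher and 12.5% lower. The 10 genes had a median log2 difference of 7.41, against 0.02 for all genes kept. For every one of the 10 genes all 7 AML libraries lay above all 4 lineage-negative libraries, as for 17% of all genes, with 17.6% the other way. TMM scaling gave 10 calls as well, where 18% of all genes were called higher and 12% lower, and so did the fit without AML replicates 5 and 6.

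The lineage-negative libraries differed among themselves. Camp had 1175, 25.6, 495 and 137 normalized counts in lineage-negative replicates 1 to 4, with a mean of 458 ± 518 (SD, n = 4) against 47592 ± 13688 in AML (SD, n = 7). Ltf had 4885, 64.3, 1184 and 620.0. Chil3 had 510.1, 41.4, 447 and 181, and Olfm4 ranged from 3.53 to 71.7. Replicate 1 was the highest and replicate 2 the lowest of the 4 for all 10 genes. The lowest AML library still exceeded the highest lineage-negative library by 6.72-fold for Retnlg, 14.5-fold for Ltf, 26.9-fold for Camp and 64.0-fold for Chil3. The size of the difference depended on these 2 libraries: for Ltf the log2 difference was 7.44, 6.31 without replicate 2 and 8.38 without replicate 1, and for Mmp9 it was 6.86, 5.72 and 7.65. Summed markers of other late granule proteins were also highest in lineage-negative replicate 1, at 23681 against 14385 to 15134 in the other 3, as were those of mature neutrophils, at 14941 against 9116 to 12046. The part of remaining mature cells in these values was not tested.

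The third comparison, between the normal groups, showed what depletion of mature cells changes. All 10 genes were lower in lineage-negative than in whole marrow, by log2 differences from -7.71 for Ngp to -6.81 for Olfm4 (limma adjusted p from 2.30e-08 to 3.98e-07). Of all genes 17.2% were called lower and 33.1% higher. With TMM scaling all 10 were again called lower, as were 24.8% of all genes, with 10.8% higher. All 4 lineage-negative libraries lay below all 4 whole marrow libraries for each of the 10 genes, as for 16.6% of all genes, with 41.1% the other way. Camp fell from 38707 ± 15976 to 458 ± 518 normalized counts and Ltf from 117478 ± 32528 to 1688 ± 2179.7 (SD, n = 4 and n = 4). Without lineage-negative replicate 2 the log2 difference of Ltf was -6.22, and without replicate 1 it was -8.29. AML against lineage-negative marrow and lineage-negative against whole marrow share the lineage-negative libraries.

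As a share of all normalized counts, the 10 genes together made up 3.02%, 1.16%, 1.78%, 0.976%, 1.69%, 3.47% and 1.61% of AML replicates 1 to 7. They made up 2.55%, 3.12%, 2.69% and 2.21% of whole marrow replicates 1 to 4, and 0.0575%, 0.00202%, 0.0261% and 0.0128% of the lineage-negative libraries. AML replicate 1 lay within the whole marrow range, replicate 6 above it and the other 5 below every whole marrow library. The mean share was 1.96% ± 0.94 for AML (SD, n = 7) and 2.64% ± 0.38 for whole marrow (SD, n = 4). This share also moves with other genes: the 7 erythroid markers took 5.22% to 7.61% of whole marrow libraries and 0.00101% to 0.0765% of AML libraries.

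Within the summed counts of the 10 genes, the shares in AML and whole marrow overlapped for all but Chil3 and Retnlg. Chil3 made up at least 9.88% of the summed counts of the 10 in every AML library, with 29.05% in replicate 6, and 6.43% to 8.17% in whole marrow, so all 7 AML libraries lay above all 4 whole marrow libraries. Retnlg made up 0.788% to 3.57% in AML and 3.70% to 4.46% in whole marrow, so all 7 AML libraries lay below. Olfm4 made up 1.48% ± 1.07 (SD, n = 7) and 0.688% ± 0.161 (SD, n = 4), with overlap. The shares within a library are not independent, since a higher share of Chil3 lowers the rest. These shares were looked at after the values had been seen and have no test.

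Ratios within a library do not depend on its size factor, and 3 of them were compared by exact two-sided permutation tests adjusted over 9 tests. The ratio of Ltf to Mpo sets a secondary granule transcript against myeloperoxidase of the primary granules. It was 6.99, 9.81, 9.88, 2.12, 1.95, 4.88 and 12.1 in AML replicates 1 to 7, 6.51, 6.27, 5.03 and 4.94 in whole marrow, and 0.0407, 0.000518, 0.0134 and 0.00781 in lineage-negative marrow. The AML libraries spread to both sides of the whole marrow values, with replicates 4 and 5 lowest, and all lay above lineage-negative marrow. The log2 ratio differed by -0.02 between AML and whole marrow (exact permutation p = 0.976). Against lineage-negative marrow it was 9.66 higher in AML (exact permutation p = 0.00303, the smallest possible, adjusted p = 0.0273). Lineage-negative against whole marrow differed by -9.68, with an exact permutation p of 0.0286, the smallest that 4 against 4 allow, and an adjusted p of 0.1.

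The ratio of Retnlg to Camp sets a late transcript against a classical secondary granule transcript. It was 0.472, 0.454, 0.453 and 0.475 in whole marrow and 0.453, 0.178, 0.0638, 0.137, 0.341, 0.464 and 0.401 in AML. AML replicates 1 and 6 lay within the narrow whole marrow range, and the other 5 below every whole marrow library. On the log2 scale the SD was 1.08 in AML (n = 7) and 0.04 in whole marrow (n = 4), and the difference was -0.96 (exact permutation p = 0.0697, adjusted p = 0.125). Against lineage-negative marrow, with ratios of 0.466, 1.34, 0.448 and 0.571, the difference was -1.40 (exact permutation p = 0.0333, adjusted p = 0.1). The ratio of Mmp9 to Ltf, tertiary against secondary granules, was 0.0735 to 0.177 over AML libraries, 0.156 to 0.188 over whole marrow and 0.152 to 0.319 over lineage-negative marrow. AML differed from whole marrow by -0.27 on the log2 scale (exact permutation p = 0.303) and from lineage-negative marrow by -0.58 (exact permutation p = 0.0455, adjusted p = 0.102).

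**Figure D3:**
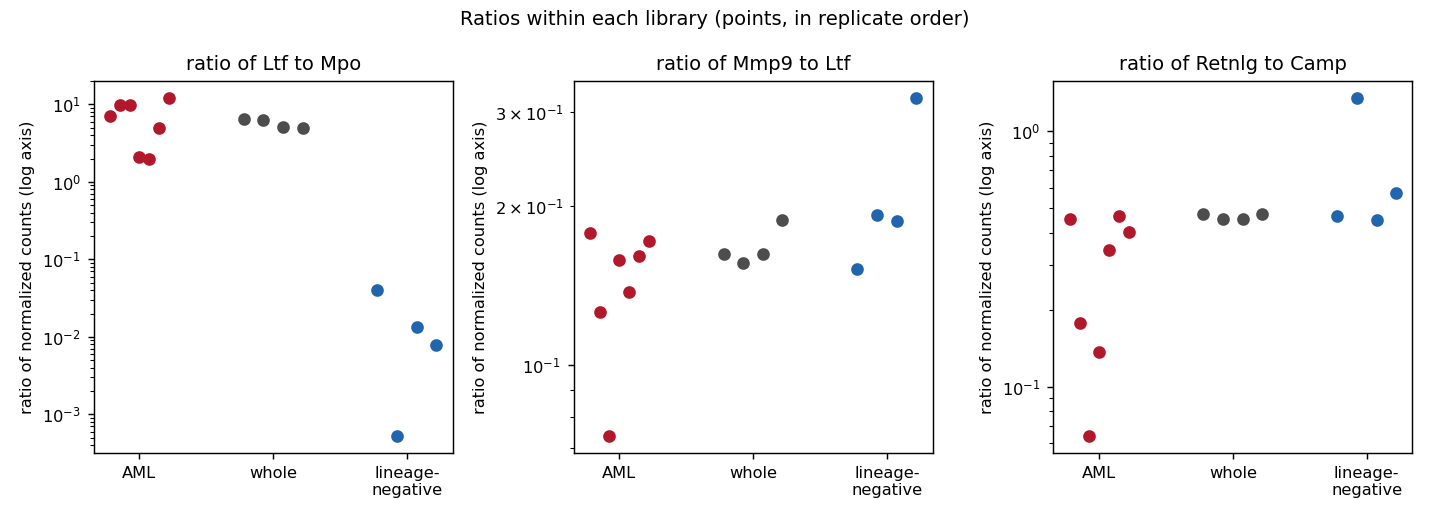
Ratios of normalized counts within each library (log axis) for Ltf to Mpo, Mmp9 to Ltf and Retnlg to Camp, as points in replicate order in AML, whole marrow and lineage-negative marrow. The 4 whole marrow points of Retnlg to Camp sit between 0.453 and 0.475, and the 7 AML points between 0.0638 and 0.464.

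Among the 7 AML marrows, replicate 1 was the highest for 7 genes and among the top 2 for all 10, and replicate 6 was the highest for Mmp8 and Chil3 and among the top 2 for 8. Replicate 5 was the highest for Olfm4. Replicate 4 was the lowest for 6 genes, replicate 3 for 3 and replicate 7 for Camp. The SD of log2 values over AML ran from 0.41 for Camp to 1.12 for Retnlg, where the median over all genes was 0.41 and the 90th percentile 1.21. In whole marrow the SD was 0.39 (Mmp9) to 0.65 (Chil3), higher than in AML for Camp (0.63) and Ngp (0.57, against 0.53) and lower for the other 8. These whole marrow SDs include replicate 1, the lowest of its group for all 10 genes, and are not given without it. The highest AML library exceeded the lowest by 2.20-fold for Camp and 8.58-fold for Retnlg. AML replicate 6 also had fewer genes listed at 0 than the other AML libraries, while replicate 1, with 41.4%, had the most.

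**Figure D4:**
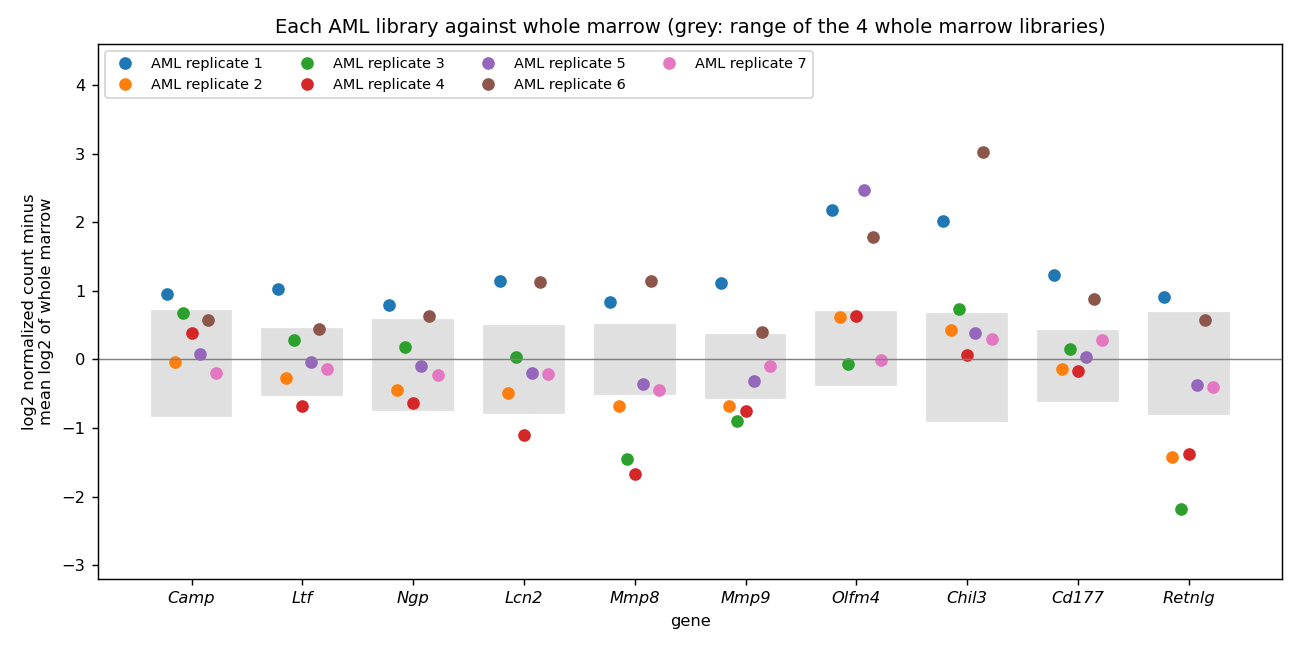
Log2 normalized count of each gene in each of the 7 AML libraries minus the mean log2 of whole marrow, with the range of the 4 whole marrow libraries in grey. AML replicates 1 and 6 lie at or above the grey range for most genes, and replicates 2, 3 and 4 lie below it for Mmp8, Mmp9 and Retnlg.

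Over the 7 AML libraries, Pearson's r of log2 values was above 0 for all 45 pairs of the 10 genes, with a median of 0.750 and a range of 0.276 to 0.980. All pairs share the 7 libraries and their size factors. After adjustment over the 45 pairs, 12 had an exact permutation p under 0.05 for r and 3 for Spearman's rho. Those 3 were the pairs among Ltf, Ngp and Lcn2, which had the same order of libraries. For Ltf and Ngp r was 0.969 and rho was 1 (exact permutation p = 0.000198 and 0.000397, adjusted 0.00298 and 0.00595). For each pair r was also computed without the 2 libraries farthest from the median of the gene named first. The libraries left out therefore differ between pairs. Without the 2 farthest r was 0.977 for Ltf and Ngp, 0.884 for Ltf and Lcn2 and 0.928 for Ngp and Lcn2. Mmp9 and Retnlg, the gelatinase and the late transcript, had r = 0.950 and rho = 0.929 (exact permutation p = 0.000794 and 0.00675, adjusted 0.00893 and 0.0692), and r = 0.942 without the 2 farthest. Over all 45 pairs, r without the 2 farthest libraries ran from -0.493 (Chil3 and Retnlg) to 0.977, being above 0.7 in 14 pairs and below 0 in 7. For the 12 pairs that passed it was at least 0.542 (Mmp9 and Cd177).

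The 5 other genes most like the mean log2 value of the 10 across the 7 AML libraries were Numb (r = 0.992), Ncf1 (0.990), Atxn10 (0.987), Eno1 (0.986) and Gk (0.984), out of 11260 genes considered. Numb encodes an adaptor that inhibits Notch signalling, Ncf1 a subunit of the phagocyte NADPH oxidase, Eno1 the glycolytic enzyme enolase and Gk glycerol kinase. Eno1 has a near-identical copy in the genome, so its counts are uncertain. These genes were chosen for their likeness, so the values carry no test. Numb had 1930 and 1779 normalized counts in AML replicates 1 and 6 and 959 to 1154 in the other 5.

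Other genes of the neutrophil programme were read from lists. For this and the lists that follow, the shares of all genes serve for comparison. Against whole marrow 27.3% of all genes were called higher and 11.3% lower, or 4.92% and 15.8% with TMM scaling. Against lineage-negative marrow 17.7% were called higher and 12.5% lower. Of 10 genes listed as primary granule genes, 1 was called higher and 0 lower in AML against whole marrow. With TMM scaling 1 was higher and 1 lower, the latter being Fcnb, a ficolin (-1.02, limma adjusted p = 0.0229). Fcnb is named here after its value was seen. Mpo, myeloperoxidase, had a log2 difference of 0.11 (limma adjusted p = 0.840), Elane, neutrophil elastase, 0.16, Prtn3, proteinase 3, 0.75 and Ctsg, cathepsin G, 0.41. The call was Ctsc, the protease that activates the granule serine proteases, at 1.90 (SE 0.32, limma adjusted p = 6.42e-05). Against lineage-negative marrow 2 of the 10 were called higher, Fcnb at 4.53 and Ctsc at 2.60. The 3 called lower were Mpo at -2.21 (limma adjusted p = 0.000345), Ctsg at -1.68 (limma adjusted p = 0.00167) and Nkg7 at -1.31. Elane, Prtn3, Ms4a3, Prss57 and Srgn were not called. All 10 secondary and tertiary genes were higher in that comparison. Normalized counts of Mpo were 8584 to 56934 over the AML libraries, and the lineage-negative libraries had 79425 to 124161. In lineage-negative against whole marrow 5 of the 10 listed genes were called higher, with Mpo at 2.32, and 1 lower. With TMM scaling 2 were higher and 2 lower. Fcnb was the gene called lower, at -4.88, the direction of the 10 secondary and tertiary genes. Its place among primary granule genes was not tested.

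Of 22 other late granule genes, 2 were called higher and 0 lower against whole marrow, Lyz2 (lysozyme, 1.06) and Cyba (a subunit of cytochrome b558, 1.00), both without a call under TMM scaling, and Lyz2 has the close paralog Lyz1. Hp, haptoglobin, had a log2 difference of 0.62, Pglyrp1, a peptidoglycan recognition protein, 0.03 and Chil1, a chitinase-like protein, -0.28. Against lineage-negative marrow 21 of 22 were called higher. The median log2 difference of this list against lineage-negative marrow was 3.95, where that of the 10 genes was 7.41.

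Among 12 genes of mature neutrophils, 0 were called higher and 1 lower in AML against whole marrow, and with TMM scaling 5 were lower. Il1b, an inflammatory cytokine, was the gene called, at -1.14 (limma adjusted p = 0.0162). S100a8 and S100a9, the subunits of calprotectin, had log2 differences of -0.22 and -0.20, the receptor of G-CSF Csf3r -0.30, and the chemokine receptor Cxcr2 -0.67, which was -1.35 and called with TMM scaling (adjusted p = 0.0301). Against lineage-negative marrow 11 of 12 were called higher, S100a8 by 7.39 and S100a9 by 7.40.

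Of 10 granulocyte transcription factors, 5 were called higher and 0 lower in AML against whole marrow, 2 of them with TMM scaling. Irf8, a factor of monocyte development, had a log2 difference of 2.33 and Cebpa, which acts at the entry into the granulocyte lineage, 1.89, both called under either scaling, and Cebpb 1.42, without a call under TMM. Cebpe, the gene of C/EBP epsilon, ranged from 991 through 1718 to 2788 normalized counts in AML, had 1156, 2688, 1971 and 2007 in whole marrow, and 262 to 375 in lineage-negative marrow. AML and whole marrow overlapped for Cebpe, with a log2 difference of -0.15 (limma adjusted p = 0.636), and all AML libraries lay above lineage-negative marrow, with 2.39 (limma adjusted p = 5.01e-07). With TMM scaling Cebpe differed from whole marrow by -0.83 (adjusted p = 0.00979), short of the threshold of 1. Gfi1, a repressor needed for neutrophil development, differed from whole marrow by 0.11 (limma adjusted p = 0.762).

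Of 12 receptors, partners and inhibitors of these granule proteins, 10 passed the filter, with Timp1 and the lactoferrin and lipocalin receptor Lrp2 below it. In AML against whole marrow 2 were called higher and 1 lower, under both scalings. Lrp1, an endocytic receptor of lactoferrin and of gelatinase complexes, was higher by a log2 difference of 2.98 (limma adjusted p = 2.78e-06), and P2rx7, through which the cathelicidin peptide can act, by 2.35 (limma adjusted p = 3.64e-07). Timp3, a metalloproteinase inhibitor, was lower by -1.47 (limma adjusted p = 0.00243). Timp2 differed by -0.09 and Slc22a17, a receptor of lipocalin 2, by 0.36.

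Among markers of other cells, monocyte and macrophage markers were called higher in AML against whole marrow in 8 of 10, or 4 with TMM scaling, led by Fn1 (2.42), Csf1r (2.29) and Ccr2 (2.27). Ly6c2, with close paralogs, differed by 1.42. All 10 were called higher against lineage-negative marrow. All 7 eosinophil, all 7 erythroid and all 7 B cell markers were called lower against whole marrow under both scalings. Of 6 T and NK cell markers 3 were higher, where TMM scaling gave 0 higher and 2 lower, and of 7 stem and progenitor markers 3 were higher and 2 lower, or 1 and 2 with TMM. The part of these cell types in the granule gene values was not tested.

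**Figure D5:**
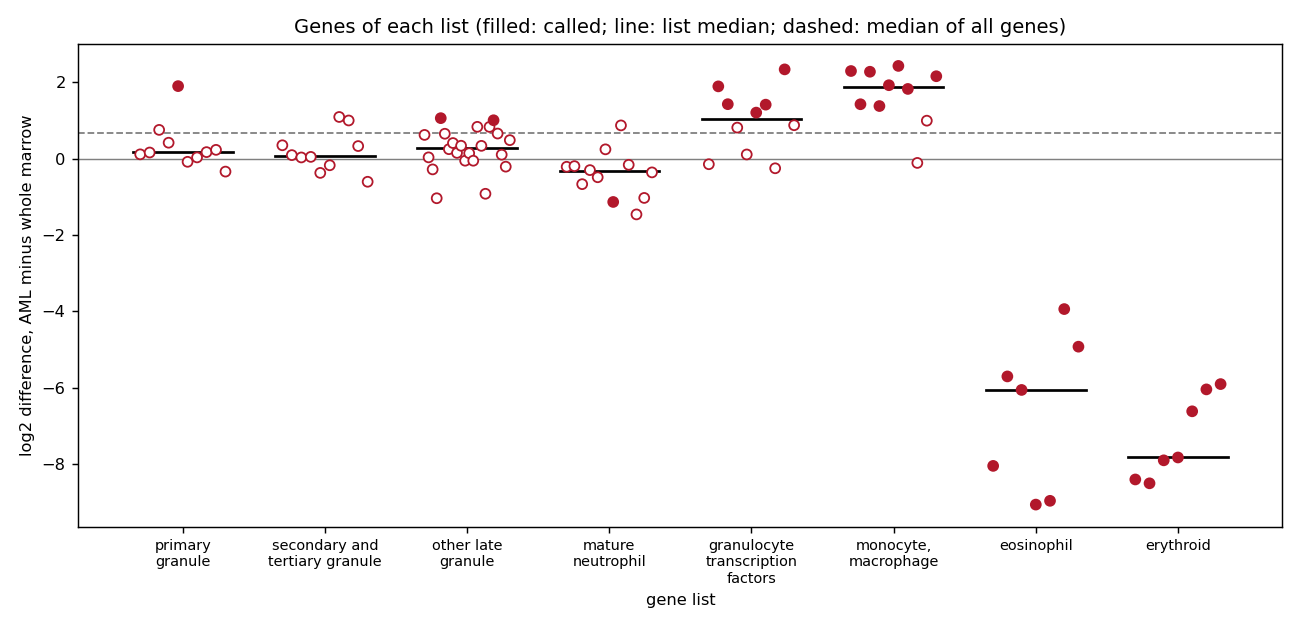
Log2 difference of AML minus whole marrow for each gene of 8 lists, with called genes filled, a line at the list median and a dashed line at the median of all genes (0.67). None of the 10 secondary and tertiary granule genes is filled, while 8 of 10 monocyte and macrophage markers are filled above 0 and all 7 erythroid markers far below 0.

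The stretch of chromosome 9 between Camp and Ltf was read for its other genes. Of 42 genes that start there, 25 besides Ngp passed the filter. Against lineage-negative marrow 8 of the 25 were called higher and 3 lower in AML, where 17.7% and 12.5% of all genes were. The 25 had a median log2 difference of 0.03 and a highest value of 2.76, where Camp, Ngp and Ltf had 7.74, 7.74 and 7.44. Against whole marrow 8 were called higher and 3 lower, near the shares of all genes, 27.3% and 11.3%.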

How the data were processed

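Per the labels' protocols, TRIzol was used for RNA extraction and a stranded TruSeq kit for total RNA libraries. The authors deposited normalized counts (unit signal), read counts per gene divided by a DESeq2 size factor of the poscounts type per library, per the name of the deposited table. The submitters' processing notes name STAR, Partek, DESeq2 and the build mm10, without versions or roles. The strand used for counting is not given in the sources used here, so antisense and overlapping genes were not separated. Of 38066 identifiers found in a GRCm38 annotation, 37557 had the same span but 861 the same start, so coordinates are printed as deposited, an end being start plus length minus 1, and the annotation served for exonic lengths.

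In each library 81.9% to 87.2% of low values were whole multiples of the value of 1 read, within 0.02 of a step. Whole reads were therefore not recovered and no count model was run. Depth was estimated as the total divided by that step. Depth estimates and floors cover counting error only.

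Genes with at least 10 normalized counts in at least 4 samples were kept (18941, with 19374 removed). Log2 values with a pseudocount of 1 entered a fit of 3 group means in limma 3.58.1 (R 4.3.3), with two-sided tests and Benjamini-Hochberg adjustment, so fold changes are on the log2(value + 1) scale. In simulated data for AML against whole marrow with 18941 genes, the test called 191 of 200 changed genes and 11 that were unchanged. The changes were planted in genes of higher level, and 92 of 100 with a log2 change of 2 and 99 of 100 with 3 were called. Smaller changes, such as those of the 10 genes between AML and whole marrow, were not simulated. The groups in this simulation had no shift in scaling, while the data had a median log2 difference of 0.67 between AML and whole marrow. The 11 unchanged genes called therefore do not measure calls that such a shift can give. TMM factors were written in R. Ratios and correlations were tested with exact permutation tests in Python 3.11.15. Alternatives were pseudocounts of 0.1 and 5, no filter, TMM scaling, quantile scaling, a minimum mean of 50, a replicate block, a fit of the groups compared, and leaving out each library. Those chosen after seeing the data were leaving out AML libraries 5 and 6 and a TMM scaling without erythroid genes and the 10 genes.

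The 10 genes and all gene lists were chosen with earlier results of these data known. The text names the 10 genes, 20 further genes listed for their roles, the 3 called genes of largest difference per list where shown, and the 5 genes of highest likeness. Promoter sequences are from RefSeq, build GRCm38.p6.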

Additional observations from a re-analysis of the deposited data

Results flagged for a closer look

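Of 42 groups of values examined for a library far from the rest of its group, 2 stood out, and chance gives about 1 in 20. Chil3 in AML replicate 6 had 252255 normalized counts, where the next AML library had 125977. The gap was 0.575 of the range of the group, above Dixon's critical value at 95% for 7 samples. The ratio of Retnlg to Camp in lineage-negative replicate 2 was 1.34, where the other 3 had 0.448 to 0.571. The gap was 0.863 of the range, above Dixon's critical value for 4 samples. In that library Camp had 25.6 and Retnlg 34.4 normalized counts, the lowest of the 4 for both.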

How the results depend on the processing

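Of the counts of called genes, 148 of 150 under 25 alternatives per comparison stayed within 1.5 times of the main count. The exceptions were both for genes called higher in AML against whole marrow, 1 instead of 0, when the groups compared were fitted alone and when lineage-negative replicate 2 was left out (leaving out single libraries gave 0 to 1). The gene was Olfm4. Of the log2 differences of single genes, 721 kept sign and call and 27 changed sign, all 27 for genes without a call in AML against whole marrow.

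With TMM scaling the log2 differences were -0.33 for Camp, -0.59 for Ltf, -0.65 for Ngp, -0.64 for Lcn2 and -0.35 for Cd177, the same to 2 decimals when erythroid genes and the 10 genes were left out of the factor. With quantile scaling they were -0.31 for Camp, -0.10 for Ngp, -0.55 for Lcn2 and -0.38 for Cd177. Leaving out single libraries gave -0.083 to 0.24 for Ltf, -0.22 to 0.22 for Ngp and -0.22 to 0.23 for Lcn2, and leaving out AML replicates 5 and 6 together gave -0.066 for Ngp and -0.13 for Lcn2. The cause was not tested. Replicate numbers are shared by the groups, and deviations of same-numbered libraries had correlations of -0.288 to 0.171. Differently numbered libraries were not compared, so these values cannot show whether the numbers pair the samples. A replicate block gave -0.025 for Ngp and -0.10 for Lcn2 and left the counts of called genes at 0 and 10.

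The log2 ratio of Ltf to Mpo in AML against whole marrow was -0.21 to 0.23 when single libraries were left out and 0.32 without AML replicates 5 and 6. Against lineage-negative marrow it was 8.42 to 10.5, and 9.998 without AML replicates 5 and 6. With any 1 lineage-negative library left out (exact permutation p adjusted to 0.075) or without AML replicates 5 and 6 (0.0714) the test gave the smallest p of its design, which does not pass the threshold after adjustment. Whole marrow libraries had the lower depth, but the 10 genes were at 2157 normalized counts or more there, far above the floor.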
